A study of Mus musculus with 2 samples.

Results

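The cytosolic ribosomal protein genes were taken as every gene whose symbol has the form Rpl or Rps followed by a number and, where present, a letter or paralog ending, together with Rpsa and the stalk genes. Pseudogenes and the ribosomal S6 kinases were left out. The pattern took 84 symbols, and 1 of them, Rps6kl1, was left out because it names a kinase. The remaining 83 genes of 33696 in the tables comprised 30 small-subunit genes, 43 large-subunit genes, the 3 stalk genes Rplp0, Rplp1 and Rplp2, and 7 paralogs whose symbols end in l or l1. Rps3a1, Fau and Rack1 also encode parts of the ribosome but fall outside the pattern, and they were kept apart.

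The study gave fluconazole, an azole antifungal, or the vehicle to mice in their drinking water for 2 weeks and sequenced brain tissue by droplet single-cell RNA-seq, with 1 library for each treatment. Both groups were Shank3-/-, so no library represents an animal with intact Shank3, and the sources used here give neither the deleted part of Shank3 nor the strain, the age or the number of mice. The labels call the tissue brain and the design text calls it prefrontal cortex. The design text names cells and nuclei together while the extraction text describes nuclei, so each droplet is called a barcode here.

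Cytosolic ribosomal proteins are encoded by single-copy genes scattered over the genome, and each contributes 1 protein to the small or the large subunit, with the stalk proteins, which help to recruit translation factors, forming the exception in copy number. Many of their transcripts begin with a C followed by a run of pyrimidines, the terminal oligopyrimidine (TOP) motif, through which mTOR signalling adjusts their translation. In brain preparations these transcripts are cytoplasmic and short, so they are counted in cell bodies and little in nuclei.

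The start regions of 6 members are shown because the values of these genes recur below and because they span the range from a long tract to none. Each line gives 15 bases before and 15 bases from the annotated RefSeq start (build GRCm38.p6), and capitals mark a C at the annotated first base followed by at least 4 bases that are C or T, searched on the gene's own strand.
Rps6 (chr4:86857353-86857382, minus strand): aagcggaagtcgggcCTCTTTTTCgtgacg
Rpl28 (chr7:4792950-4792979, plus strand): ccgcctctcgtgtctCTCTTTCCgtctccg
Rpl38 (chr11:114668565-114668594, plus strand): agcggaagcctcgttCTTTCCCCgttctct
Rplp2 (chr7:141447636-141447665, plus strand): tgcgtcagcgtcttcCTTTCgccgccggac
Rpl5 (chr5:107900513-107900542, plus strand): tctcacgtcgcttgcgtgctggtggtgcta
Rpl7l1 (chr17:46782642-46782671, minus strand): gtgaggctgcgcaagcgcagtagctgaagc
Of the 83 members, 63 matched the RefSeq start table by symbol. Such a tract stood at the annotated first base in 13 of the 63 (20.6%), against 813 of all 27025 genes in the table (3.01%). Allowing the tract to start at any base up to 5 before or after the annotated start, it was found in 29 of 63 members (46.0%) and in 5718 of 27025 genes (21.2%). Rpl5 and Rpl7l1 had no tract at the annotated first base. These are matches of letters at annotated starts, which can lie some bases from the starts used in brain.

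After filtering, the fluconazole library held 10610 barcodes with 68918276 UMIs and a median of 5258 UMIs per barcode, and the vehicle library held 12892 barcodes with 67877915 UMIs and a median of 4327. The fluconazole library was therefore deeper per barcode. Counts are unique molecules tagged near the transcript end, so they were scaled to the UMI total of the class as CPM, with no division by gene length. Classes included spiny neurons of striatal type, a cell type of the striatum, with 212 barcodes in the fluconazole library and 330 in the vehicle library. Shank3 itself was counted in both libraries, at 78.4 CPM with fluconazole and 70.9 CPM with vehicle in glutamatergic neurons, which checks nothing because the deleted part is not given. The 2 libraries shared 45 of their deposited barcodes and 31 of those kept. With 1 library per treatment no test between treatments was possible, and every interval given is a 95% exact interval that covers counting error only and takes each UMI as independent. Classes were named from marker genes and come from the same 2 libraries, so a difference between the libraries as a whole would recur in each of them.

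Ribosomal protein UMIs made up 3.60% of all kept UMIs in the fluconazole library (2478230 UMIs) and 3.90% in the vehicle library (2645523 UMIs). This share differed far more between cell classes than between the libraries. Endothelial cells (the lining of blood vessels), neuroblasts (immature neurons) and border macrophages (the macrophages of meninges and vessels) had the high shares. Endothelial cells had 7.55% in the fluconazole library and 7.43% in the vehicle library, neuroblasts 7.08% with fluconazole and 7.50% with vehicle, and border macrophages 6.67% with fluconazole and 7.70% with vehicle. Microglia, the resident macrophages of the brain, had 5.19% in the fluconazole library and 5.25% in the vehicle library, mural cells of the vessel wall had 4.86% with fluconazole and 5.37% with vehicle, and the myelinating oligodendrocytes had 3.21% with fluconazole and 3.36% with vehicle. Fibroblasts, astrocytes and oligodendrocyte precursors lay between these and the neurons, at 1.91%, 1.23% and 1.08% in the fluconazole library and 2.86%, 1.54% and 1.09% in the vehicle library. Neurons closed the order. Spiny neurons of striatal type had 0.532% in the fluconazole library and 0.701% in the vehicle library, GABAergic neurons 0.498% with fluconazole and 0.646% with vehicle, and glutamatergic neurons 0.420% with fluconazole and 0.553% with vehicle. From the lowest class to the highest the share differed 18.0-fold in the fluconazole library and 13.9-fold in the vehicle library. Between 80 and 82 of the 83 members had at least 1 UMI in every class. The classes differed in other readouts too. With fluconazole, nuclear-retained RNAs such as Malat1 made up 5.76% of UMIs in glutamatergic neurons and 1.91% in endothelial cells. Mitochondrially encoded genes made up 0.254% and 2.60% there. The vehicle library had 5.12% and 1.81%, and 0.283% and 2.35%. How far a mix of cells and nuclei sets the order of classes was not tested.

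**Figure D1:**
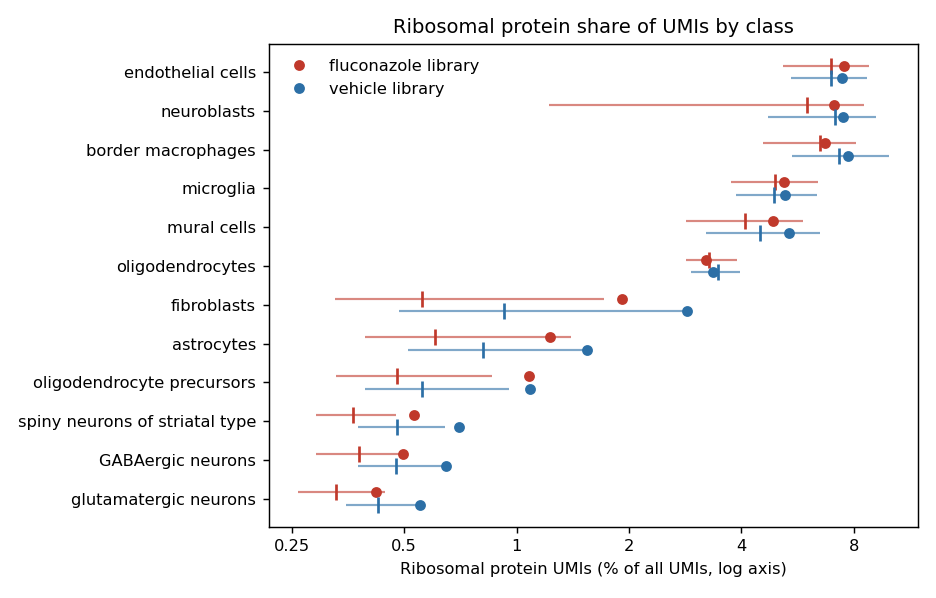
Share of UMIs from the 83 ribosomal protein genes in 12 cell classes of the fluconazole and vehicle libraries, on a log axis in percent. The dot is the share over summed UMIs, the tick the median barcode and the line the quartiles of barcodes; neurons lie at 0.420% to 0.701% in both libraries and endothelial cells above 7%.

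Within several classes the barcodes themselves covered a wide range of shares. Ranges of under 1%, 1 to 2% and 2% and over were set after seeing these distributions and serve only to describe them. Among endothelial cells 97.2% of barcodes in the fluconazole library and 97.2% in the vehicle library lay at 2% or over, and among microglia 97.8% with fluconazole and 98.4% with vehicle. Among glutamatergic neurons 94.2% of barcodes in the fluconazole library and 92.9% in the vehicle library lay under 1%. These classes therefore sat almost wholly in one range. Neuroblasts, fibroblasts and astrocytes were spread over the ranges, and in each of them the fluconazole library had the larger share of barcodes under 1%. For neuroblasts this share was 20% (49 of 245 barcodes) in the fluconazole library and 6.73% (35 of 520) in the vehicle library. In fibroblasts it was 67.9% (112 of 165) with fluconazole and 52.2% (155 of 297) with vehicle, and in astrocytes 65.4% (426 of 651) with fluconazole and 59.1% (447 of 756) with vehicle. Oligodendrocyte precursors were also spread, with the shares under 1% close together at 76.6% with fluconazole and 77.7% with vehicle. Astrocyte barcodes of low and high ribosomal protein share differed in further readouts. In astrocytes of the fluconazole library, those under 1% had 7.08% of UMIs from nuclear-retained RNAs such as Malat1 and 0.854% from mitochondrially encoded genes, against 5.19% and 2.35% in those at 2% or over. The vehicle library showed the same order, with 6.17% and 0.801% under 1% and 4.66% and 2.41% at 2% or over. Fibroblasts, neuroblasts, oligodendrocyte precursors, mural cells, border macrophages and the neuron classes had the same mitochondrial order in both libraries. In fibroblasts of the fluconazole library it was 0.502% under 1% and 2.38% at 2% or over. The mitochondrial difference did not hold in endothelial cells or microglia. The few endothelial barcodes under 1%, 22 in each library, had 2.72% with fluconazole and 2.51% with vehicle. Those at 2% or over had 2.60% with fluconazole and 2.35% with vehicle. Endothelial nuclear-retained RNAs kept the order, at 2.91% under 1% and 1.90% at 2% or over with fluconazole. Whether a low-share barcode held a nucleus and a high-share barcode a cell was not tested.

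**Figure D2:**
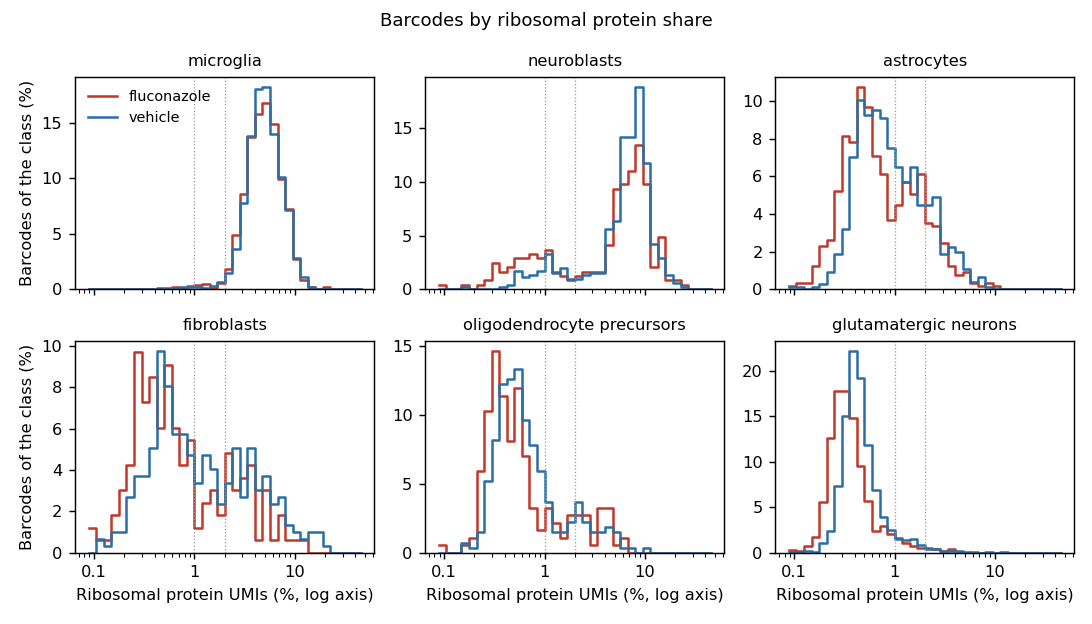
Distribution of barcodes by their ribosomal protein share (log axis, percent) in 6 classes, fluconazole and vehicle libraries overlaid, with dotted lines at 1% and 2%. Microglia form a single peak above 2% and glutamatergic neurons a single peak under 1%, while neuroblasts, fibroblasts and astrocytes extend over both ranges.

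Glutamatergic neurons, the excitatory neurons, were the largest neuronal class, with 1750 barcodes in the fluconazole library and 2121 in the vehicle library. Summed over members, ribosomal protein transcripts stood at 4202 CPM in the fluconazole library and 5525 CPM in the vehicle library, a log2 ratio of -0.39 (interval -0.41 to -0.38). Of the 80 members with at least 20 UMIs there, 78 had lower CPM in the fluconazole library, where 57.9% of all genes at the same minimum did. A difference of at least 0.25 on the log2 scale in this direction was seen for 72 of the 80 members and 22.8% of all genes, and in the other direction for 0 members and 12.7% of all genes. The median member had a log2 ratio of -0.39 with quartiles of -0.47 and -0.33, and the median of the other genes was -0.04. The members were thus lower together, in a narrow band around the sum.

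The lower level in glutamatergic neurons was seen in both subunits. Small-subunit genes summed to 1783 CPM in the fluconazole library and 2322 CPM in the vehicle library, with 29 of 30 lower and a log2 ratio of -0.38. Large-subunit genes summed to 2182 CPM in the fluconazole library and 2905 CPM in the vehicle library, with 43 of 43 lower and a log2 ratio of -0.41. The stalk genes were lower too, and differed among themselves. Rplp0, the base of the stalk, stood at 34.2 CPM in the fluconazole library and 49.5 CPM in the vehicle library (log2 ratio -0.53, interval -0.68 to -0.39). Rplp1 stood at 105 CPM with fluconazole and 134 CPM with vehicle (-0.35, interval -0.43 to -0.26), and its partner Rplp2 at 41.0 CPM with fluconazole and 48.7 CPM with vehicle (-0.25, interval -0.38 to -0.11).

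Rpl27a was the most abundant member in glutamatergic neurons, at 121 CPM in the fluconazole library and 155 CPM in the vehicle library. The small-subunit genes Rps12 and Rps14 stood at 114 and 88.5 CPM in the fluconazole library, against 137 and 125 CPM in the vehicle library, and the large-subunit gene Rpl13 at 90.4 CPM with fluconazole against 124 CPM with vehicle. Among the lowest ratios were those of the large-subunit genes Rpl29, at 30.2 CPM with fluconazole and 47.6 CPM with vehicle (log2 ratio -0.65, interval -0.80 to -0.50), and Rpl10a, at 30.8 CPM with fluconazole and 47.7 CPM with vehicle (-0.63, interval -0.78 to -0.48). Rpl32, Rpl28 and Rpl36a, also of the large subunit, had log2 ratios of -0.57, -0.56 and -0.54. At the other end were 2 members with no lower value. Rpl7l1, a relative of Rpl7 whose yeast counterpart works in the nucleolus on the maturing large subunit, stood at 17.5 CPM in the fluconazole library and 17.2 CPM in the vehicle library (log2 ratio 0.03, interval -0.19 to 0.25). Rps6, the small-subunit protein phosphorylated by the S6 kinases, stood at 31.8 CPM in both (log2 ratio 0.00, interval -0.16 to 0.16). Rpl6, Rps29 and Rpl5 had ratios of -0.17, -0.18 and -0.18, whose intervals lie above that of the sum. Rpl5, for example, stood at 55.7 CPM in the fluconazole library and 63.1 CPM in the vehicle library.

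The size of the difference in glutamatergic neurons depended on which barcodes were summed. Keeping called doublets gave a log2 ratio of -0.24. When barcodes of both libraries were divided into 3 equal bins by UMI count (limits 6590 and 11232 UMIs), a division added after seeing the data, the ratio was -0.12 in the low bin, -0.25 in the middle bin and -0.57 in the high bin. In the 6 glutamatergic clusters it lay between -0.62 and -0.20, lower in the fluconazole library in each. The fluconazole library also had more UMIs of other genes per barcode in this class. A glutamatergic barcode held on average 49.3 ribosomal protein UMIs of 11734 UMIs in the fluconazole library and 48.4 of 8768 in the vehicle library. Per barcode the log2 ratio was therefore 0.03 for ribosomal protein UMIs and 0.42 for all other UMIs. The lower share thus stood beside a nearly equal number of ribosomal protein molecules and a larger number of other molecules.

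**Figure D3:**
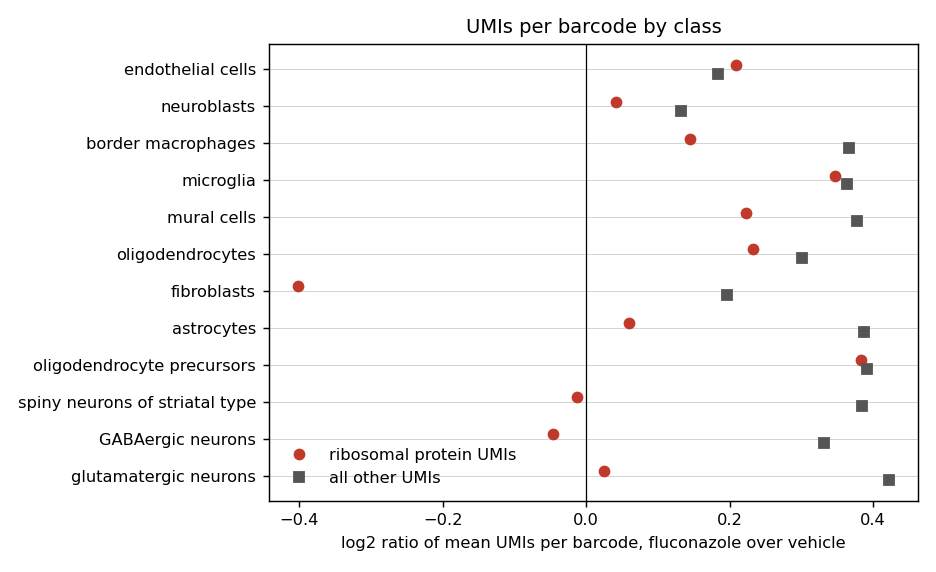
Log2 ratio, fluconazole over vehicle, of the mean number of ribosomal protein UMIs and of all other UMIs per barcode in 12 classes. In glutamatergic, spiny and GABAergic neurons and in astrocytes the ribosomal protein point lies near 0 while the other UMIs lie between 0.33 and 0.42; in microglia and oligodendrocyte precursors the points coincide within 0.02.

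Transcripts of other cell types were present in glutamatergic barcodes at a level close to that of ribosomal protein transcripts. Relative to their level over all kept barcodes, ribosomal protein transcripts stood at 11.7% in the fluconazole library and 14.2% in the vehicle library. Microglial markers stood at 11.3% with fluconazole and 12.7% with vehicle on the same measure, oligodendrocyte markers at 10.7% with fluconazole and 11.8% with vehicle, and endothelial markers at 8.85% with fluconazole and 10.8% with vehicle. These lists also had lower CPM in the fluconazole library, in a class where 57.9% of all genes did. The 12 microglial markers summed to 735 CPM in the fluconazole library and 932 CPM in the vehicle library, with 12 of 12 lower and none at 0. The 12 endothelial markers summed to 526 CPM with fluconazole and 613 CPM with vehicle, with 11 of 12 lower, and the 12 oligodendrocyte markers to 337 CPM with fluconazole and 424 CPM with vehicle, with 10 of 12 lower. Red blood cell markers went the other way, at 573 CPM in the fluconazole library and 401 CPM in the vehicle library. If free RNA is taken at the level of the endothelial markers, the lowest of the lists, it would account for 75.7% of the ribosomal protein UMIs of glutamatergic neurons in the fluconazole library and 76.4% in the vehicle library. Subtracting it at that level, an alternative added after seeing the data, left a log2 ratio of -0.38 for the sum and 70 of 80 members lower. At the median level over all lists the subtraction exceeded the counted UMIs in this class and gave no ratio. Levels of members in neurons therefore lay close to the height of this background, and how far it sets the differences among members there was not tested.

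Spiny neurons of striatal type and GABAergic neurons, the inhibitory neurons, resembled glutamatergic neurons in both respects. In spiny neurons the sum had a log2 ratio of -0.40 (interval -0.43 to -0.36), and 78 of 80 members were lower in the fluconazole library against 56.2% of all genes. In GABAergic neurons it was -0.38 (interval -0.41 to -0.34), with 77 of 80 members lower against 52.2% of all genes. Lower by at least 0.25 were 60 of 80 members in spiny neurons (29.8% of all genes) and 61 in GABAergic neurons (23.3%). By bins of UMI count the GABAergic sum stood at -0.34 in the low, -0.15 in the middle and -0.54 in the high bin. With doublets kept it stood at -0.22, and with free RNA subtracted at the lowest list the spiny sum stood at -1.18. Rplp0 stood at 36.5 CPM in the fluconazole library and 64.8 CPM in the vehicle library in spiny neurons (-0.83), while Rpl29 stood at 25.2 CPM with fluconazole and 53.9 CPM with vehicle in GABAergic neurons (-1.10). Per barcode, spiny neurons held 50.3 ribosomal protein UMIs in the fluconazole library and 50.7 in the vehicle library, and GABAergic neurons 39.8 with fluconazole and 41.1 with vehicle.

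Astrocytes had a log2 ratio of -0.32 for the sum (interval -0.35 to -0.30), with 79 of 80 members lower in the fluconazole library against 53.3% of all genes. By at least 0.25 it was 60 members, against 23.9% of all genes. Rplp1 stood at 310 CPM in the fluconazole library and 399 CPM in the vehicle library (log2 ratio -0.36), and its partner Rplp2 at 115 CPM with fluconazole and 171 CPM with vehicle (-0.57). Rps24, a small-subunit gene, was the exception, at 269 CPM in the fluconazole library and 263 CPM in the vehicle library (0.03, interval -0.14 to 0.20). By bins of UMI count the astrocyte ratio was 0.10 in the low bin, -0.48 in the middle bin and -0.52 in the high bin, so the low bin had the other direction. Under the stricter filter it was -0.10. Subtracting free RNA at the median level left 72 members at 0 or below in the vehicle library and 32 in the fluconazole library. The count after that subtraction, 1 of 50 members lower, therefore gives no direction. An astrocyte barcode held 43.6 ribosomal protein UMIs in the fluconazole library and 41.8 in the vehicle library.

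Fibroblasts had the largest difference of the 12 classes, with a log2 ratio of -0.58 (interval -0.62 to -0.55), and 80 of 80 members were lower in the fluconazole library against 50.9% of all genes. By at least 0.25 it was 78 members, against 31.7% of all genes. Rpl29 had the lowest ratio, at 94.4 CPM in the fluconazole library and 217 CPM in the vehicle library (-1.20, interval -1.65 to -0.77). Rpl41, which encodes the smallest ribosomal protein, stood at 347 CPM in the fluconazole library and 654 CPM in the vehicle library (-0.91). Rpl35a differed least, at 314 CPM with fluconazole and 322 CPM with vehicle (-0.04, interval -0.31 to 0.23). Fibroblasts were the 1 class with fewer ribosomal protein UMIs per barcode in the fluconazole library by more than 0.05 on the log2 scale, with 68.7 in the fluconazole library against 90.7 in the vehicle library. The class was small, with 165 barcodes in the fluconazole library and 297 in the vehicle library. Other lists also differed within it. Choroid plexus markers summed to 268 CPM in the fluconazole library and 1202 CPM in the vehicle library, and red blood cell markers to 192 CPM with fluconazole and 2031 CPM with vehicle, while fibroblast markers summed to 4658 CPM with fluconazole and 4283 CPM with vehicle. Their part in the lower ribosomal protein share was not tested. By bins of UMI count the fibroblast ratio was -0.58 in the low, -0.94 in the middle and -0.59 in the high bin. It was -0.98 under the stricter filter and -1.45 with free RNA subtracted at the median level. Apart from the bins, the alternatives lay between -1.45 and -0.53.

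In the remaining classes the sum differed little. Endothelial cells had a log2 ratio of 0.02 (interval 0.02 to 0.03), and 32 of 81 members were lower and 49 higher in the fluconazole library, against 51.9% and 48.1% of all genes. Rpl13 and Rps14 stood at 1904 and 1887 CPM in the fluconazole library and at 1885 and 1887 CPM in the vehicle library. Rplp1 stood at 1949 CPM with fluconazole and 1794 CPM with vehicle (log2 ratio 0.12). The direction of the endothelial sum turned under a stricter filter (-0.16), after thinning to equal depth (-0.03) and in the low and middle bins by UMI count (-0.046 and -0.034), with 0.042 in the high bin. Microglia had a ratio of -0.02 (interval -0.02 to -0.01), with 40 of 80 members lower against 49.9% of all genes, and Rplp1, their most abundant member, stood at 1974 CPM in the fluconazole library and 1973 CPM in the vehicle library. The microglial sum was above 0 in each bin by UMI count, at 0.046 in the low, 0.088 in the middle and 0.027 in the high bin, so its direction depends on how barcodes are pooled. Oligodendrocyte precursors had a ratio of -0.01 (interval -0.04 to 0.02), with 39 of 80 members lower against 48.9% of all genes. Their ratio moved to -0.23 under the stricter filter and to 0.16 after clustering without the members. No member was among the variable genes of the main clustering. That alternative thus removed none and differed in its division into clusters (37 against 34). The low bin of the precursors stood at -0.32. In microglia and precursors all UMIs per barcode differed as the ribosomal protein UMIs did: a microglial barcode held 321 in the fluconazole library and 252 in the vehicle library, a log2 ratio of 0.35 beside 0.36 for other UMIs.

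Oligodendrocytes had a ratio of -0.07 (interval -0.08 to -0.05), with 59 of 80 members lower against 47.6% of all genes. Under the stricter filter the sum turned to 0.35. Most oligodendrocyte barcodes were then left out, as the median barcode had 3.80% mitochondrial UMIs with fluconazole and 3.57% with vehicle. By UMI count the oligodendrocyte sum was 0.10 in the low bin, 0.03 in the middle bin and -0.03 in the high bin. Neuroblasts had -0.08 (interval -0.09 to -0.07), with 63 of 80 lower against 51.9%, mural cells -0.15 (interval -0.16 to -0.13), with 73 of 80 lower against 48.5%, and border macrophages -0.21 (interval -0.22 to -0.19), with 75 of 80 lower against 48.9%. In neuroblasts and border macrophages the difference lay in the low bin of barcodes by UMI count, with ratios of -0.79 and -0.61, against 0.00 and 0.05 in the middle bin and -0.04 and -0.06 in the high bin. The mural sum stood at -0.01 in the low bin, -0.22 in the middle bin and -0.26 in the high bin. In mural cells and border macrophages most members thus shared the direction of the sum. For border macrophages that difference lay in the low bin, which held 33 barcodes with fluconazole and 63 with vehicle. Lower by at least 0.25 were 26 of 80 members in border macrophages (25.6% of all genes), 11 in mural cells (21.7%), 5 in neuroblasts (22.8%), 4 in oligodendrocytes (16.3%), 3 in oligodendrocyte precursors (22.7%), 2 in microglia (16.4%) and 2 of 81 in endothelial cells (16.3%). Apart from border macrophages, these classes held fewer such members than the background share. That share covers all genes with at least 20 UMIs and was not matched for abundance. Genes with few UMIs pass 0.25 by counting error more often than the abundant members, so no conclusion about the members follows. Under the stricter filter the sum stood at -1.16 in mural cells and -0.49 in border macrophages, and after thinning at -0.20 in neuroblasts. The median mural barcode had 2.98% mitochondrial UMIs with fluconazole and 3.04% with vehicle, and the median border macrophage 2.32% with each. The stricter filter therefore left out most barcodes of these 2 classes.

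Of the 80 members measured in all 12 classes, Rps6 and Rpl5 had log2 ratios above that of the median member in 12 of 12. The difference from the class median on the log2 scale lay between 0.05 and 0.43 for Rps6 and between 0.03 and 0.26 for Rpl5. In endothelial cells Rps6 stood at 677 CPM in the fluconazole library and 580 CPM in the vehicle library (log2 ratio 0.22, interval 0.18 to 0.27). In microglia Rps6 stood at 441 CPM in the fluconazole library and 380 CPM in the vehicle library (0.21, interval 0.16 to 0.26). Both classes have many ribosomal protein UMIs and little difference in the sum. Because the classes come from the same 2 libraries, 12 classes are not 12 replicates. Among members at the ends of the range in single classes were Rpl13a, which encodes a large-subunit protein, at 1130 CPM in the fluconazole library and 967 CPM in the vehicle library in endothelial cells (0.22), and Rps2, at 282 CPM with fluconazole and 325 CPM with vehicle in microglia (-0.20).

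**Figure D4:**
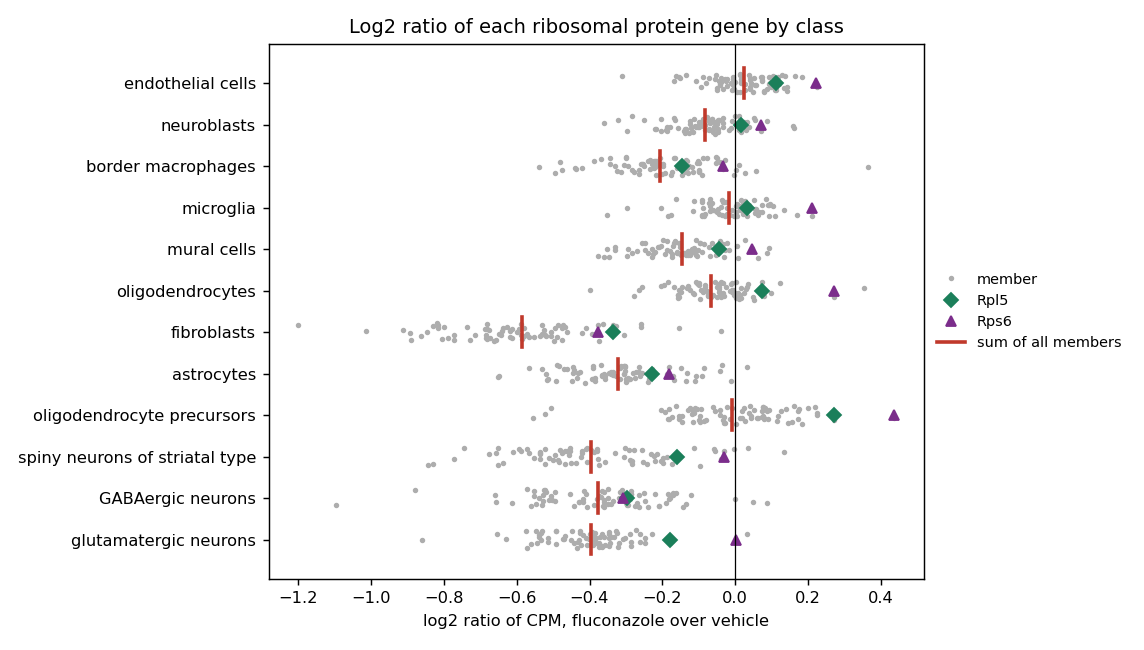
Log2 ratio, fluconazole over vehicle, of each member in 12 classes (grey points), with Rpl5 and Rps6 marked and a line at the ratio of the sum. Rpl5 and Rps6 lie above the median member in 12 of 12 classes; Rpl39l, with 3 UMIs in the fluconazole library and 18 in the vehicle library in endothelial cells, is not drawn.

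The genes that complete the ribosome outside the pattern did not all follow the sum. In glutamatergic neurons Fau, which encodes a ubiquitin-like protein fused to a small-subunit protein, stood at 97.7 CPM in the fluconazole library and 136 CPM in the vehicle library (log2 ratio -0.48), and Rack1, a scaffold on the small subunit, at 31.8 CPM with fluconazole and 41.9 CPM with vehicle (-0.40). Rps3a1, a small-subunit gene, stood at 58.2 CPM in the fluconazole library and 58.9 CPM in the vehicle library (-0.02, interval -0.14 to 0.10). Rps3a1 was higher in the fluconazole library in endothelial cells (1088 CPM with fluconazole against 890 CPM with vehicle, 0.29) and microglia (721 CPM with fluconazole against 577 CPM with vehicle, 0.32). Fau, at 1638 CPM with fluconazole and 1688 CPM with vehicle in endothelial cells, was not (-0.04). Several members have near-identical processed copies, among them Rps18, Rpl9, Rpl10 and Rps27, and values of such genes are uncertain because reads may have been divided between the copies.

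The make-up of the ribosomal protein pool was much alike between classes. Ranked by their share of ribosomal protein UMIs, the 83 members gave a median Spearman correlation of 0.88 over the 66 pairs of classes in the fluconazole library and 0.90 in the vehicle library. The points are genes that share libraries, depth and free RNA, so these values are descriptions. Border macrophages and oligodendrocytes were the least alike, at 0.70 in the fluconazole library and 0.76 in the vehicle library. The median member's share differed 1.65-fold between its lowest and highest class in the fluconazole library and 1.56-fold in the vehicle library. Of 80 members at the minimum in every class, 12 differed at least 2-fold in both libraries, namely Rpl6, Rpl7a, Rpl10, Rpl22l1, Rpl38, Rpl7l1, Rplp1, Rps26, Rps27, Rps27l, Rps29 and Rpsa.

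Rplp1 and Rps29 were the members that marked the macrophages. Rplp1 made up 3.94% of ribosomal protein UMIs in border macrophages and 1.42% in neuroblasts of the fluconazole library, and in the vehicle library it ranged up to 3.76%, in microglia, with 1.44% in neuroblasts. Rps29 made up 3.22% in border macrophages and 1.04% in neuroblasts of the fluconazole library, and 2.79% and 1.00% in the vehicle library. Rps26 ran the other way, with 1.53% in neuroblasts and 0.472% in border macrophages of the fluconazole library and 1.65% and 0.569% in the vehicle library. Rpl38 was most prominent in endothelial cells, at 1.36% in the fluconazole library and 1.41% in the vehicle library, and least in microglia, at 0.561% with fluconazole and 0.548% with vehicle. Rpsa, a small-subunit protein also known as the laminin receptor, made up 1.80% in oligodendrocytes and 0.819% in endothelial cells of the fluconazole library, and 1.68% and 0.778% in the vehicle library. Rpl6 made up 2.13% in glutamatergic neurons and 0.903% in border macrophages of the fluconazole library, and 1.83% and 0.825% in the vehicle library. Apart from the highest class of Rplp1, both libraries thus placed these members highest and lowest in the same classes. Over all 80 members, 52 had the same highest class in both libraries and 47 the same lowest.

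**Figure D5:**
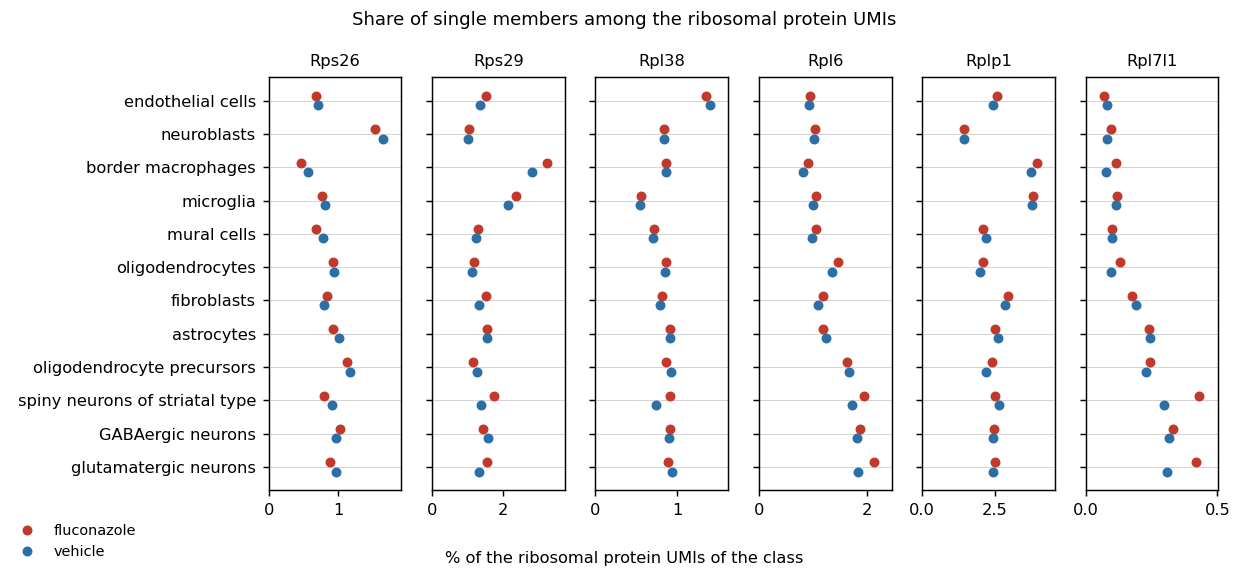
Share of all ribosomal protein UMIs (percent) taken by Rps26, Rps29, Rpl38, Rpl6, Rplp1 and Rpl7l1 in 12 classes of the fluconazole and vehicle libraries. In both libraries Rplp1 and Rps29 take a high share in the macrophage classes and a low one in neuroblasts, with Rps26 the reverse. Rpl7l1 takes a high share in neurons, where the ribosomal protein total is low.

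Among the paralogs, 4 were expressed beside their parent genes and 3 were near 0. Rpl10l had no UMI in either library, Rpl3l, known from muscle, had 28 UMIs in the fluconazole library and 32 in the vehicle library, and Rpl39l had 16 with fluconazole and 34 with vehicle. In the fluconazole library Rpl7l1 made up 26.2% of Rpl7l1 and Rpl7 UMIs together in glutamatergic neurons and 4.82% in endothelial cells. The vehicle library had 20.6% and 5.33%. By CPM Rpl7l1 was lower in glutamatergic neurons than in neuroblasts (68.0 CPM with fluconazole, 60.8 CPM with vehicle). It was also lower there than in astrocytes (29.5 CPM with fluconazole, 37.5 CPM with vehicle). Rpl36al made up 54.3% of Rpl36al and Rpl36a UMIs in oligodendrocytes of the fluconazole library and 29.6% in endothelial cells, against 52.0% and 32.4% in the vehicle library. Rpl36al and Rpl36a encode nearly identical proteins, and reads could be divided between near copies, so this division is uncertain. Rps27l, a p53 target in human cells, made up between 8.38% (microglia) and 28.3% (mural cells) of Rps27l and Rps27 UMIs in the fluconazole library, and between 10.2% (spiny neurons) and 26.7% (oligodendrocytes) in the vehicle library. Rpl22l1 made up between 21.6% and 39.6% of the Rpl22 pair in the fluconazole library and between 20.8% and 39.7% in the vehicle library.

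Other genes of translation were compared in glutamatergic neurons, where 57.9% of all genes had lower CPM with fluconazole. Of 16 elongation factors and other TOP transcripts, 13 were lower, with a median log2 ratio of -0.29. Tpt1, a classical TOP transcript, stood at 192 CPM in the fluconazole library and 261 CPM in the vehicle library (-0.44), and Eef1b2, an elongation factor subunit, at 22.4 CPM with fluconazole and 30.8 CPM with vehicle (-0.46), whereas Eef1a2, the neuronal elongation factor, stood at 25.5 CPM with fluconazole and 21.99 CPM with vehicle (0.21). Of 26 initiation factors 19 were lower with a median of -0.10, between Eif3g at -0.46 and Eif3c at 0.19. Of 34 ribosome biogenesis genes 12 were lower and 22 higher, with a median of 0.07, so these nuclear and nucleolar factors did not share the direction of the ribosomal proteins. Of 11 snoRNA host genes, 8 were lower with a median of -0.28, among them Gas5, itself a TOP transcript, at 30.1 CPM in the fluconazole library and 39.1 CPM in the vehicle library (-0.37). Of 21 genes of mTOR and MYC growth control 9 were lower, with a median of 0.01. Eif4ebp1, an inhibitor of initiation that mTOR phosphorylates, stood at 3.56 CPM in the fluconazole library and 7.26 CPM in the vehicle library (-1.03, interval -1.46 to -0.61), on 73 UMIs with fluconazole and 135 with vehicle. Rheb, the activator of mTOR, stood at 59.3 CPM with fluconazole and 53.4 CPM with vehicle (0.15).

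Transcripts of mitochondria and of the nucleus differed in the same barcodes, where 57.9% of all genes had lower CPM with fluconazole. Of 82 nuclear-encoded oxidative phosphorylation genes 78 were lower in the fluconazole library, with a median log2 ratio of -0.25, and Ndufa13, a complex I subunit, stood at 14.3 CPM in the fluconazole library and 21.5 CPM in the vehicle library (-0.58). Of 13 mitochondrially encoded genes 12 were lower, with a median of -0.11, and of 78 mitochondrial ribosomal proteins 58 were lower, with a median of -0.11. Nuclear-retained RNAs went the other way, with 2 of 10 lower and a median of 0.09, and Malat1 stood at 46644 CPM in the fluconazole library and 41084 CPM in the vehicle library (0.18). In glutamatergic neurons nuclear-retained RNAs made up 5.76% of UMIs with fluconazole and 5.12% with vehicle. Mitochondrially encoded genes made up 0.254% with fluconazole and 0.283% with vehicle. Taking both out of the totals could therefore move the ribosomal protein sum only slightly, and left it at -0.39. Their relation to the lower ribosomal protein share was not tested.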

How the data were processed

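Gene by barcode counts of UMIs were deposited by the authors for 2 mouse libraries, 1 per treatment. Per the submitters' processing notes the tools were R 4.0.3, Seurat 4.0.0 and Cell Ranger 9.0.0 with build mm10, while per the file headers the matrices were written by Cell Ranger 8.0.1. Whether introns were counted is not given in the sources used here. The deposited matrices held 12637 barcodes (fluconazole) and 14924 barcodes (vehicle).

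Barcodes under 500 genes or over 5% mitochondrial UMIs were left out, and doublets called by Scrublet in scanpy 1.11.5 (expected rate 8%), 517 in the fluconazole library and 617 in the vehicle library, were left out. The 2 libraries were clustered together (2000 variable genes per library, 30 components, 15 neighbours, Leiden resolution 1.0, leidenalg 0.10.2), which gave 34 clusters. Clusters were named from marker lists, by rules written with the clusters at hand, and 4 stayed unnamed. The main analysis covered the 12 classes that had 50 or more barcodes in both libraries.

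UMIs were summed per class and library, scaled to CPM, and compared as a log2 ratio of fluconazole over vehicle with an exact conditional binomial interval (scipy 1.17.1). Shares have Clopper-Pearson intervals. Members entered counts with at least 20 UMIs over both libraries. The ratio and its interval were checked on simulated data. Each UMI came from an amplified library, so intervals cover counting error only. Free RNA was estimated per class from markers of other classes, as their CPM in the class relative to all barcodes.

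Members with values were the 5 of highest CPM per class, the 8 lowest and 8 highest ratios in glutamatergic neurons and the 3 lowest and 3 highest in other classes among members with at least 200 UMIs, all paralogs and stalk genes, and 2 at each end of each other list. Some genes that this rule names are not reported here. Rps6 and Rpl5 across classes, and the members in the make-up of the pool, were chosen after their values were seen. The members and lists were chosen with earlier results of these data known. Alternatives tried were doublets kept, a stricter filter of at least 1000 genes and at most 1% mitochondrial UMIs, thinning to 1500 UMIs, other scaling and totals, means over clusters or barcodes, free-RNA subtraction, a minimum of 200 UMIs, and clustering without the members. No member was a variable gene in the main clustering, so the last alternative removed none and differed in the division into clusters.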

Additional observations from a re-analysis of the deposited data

Results flagged for a closer look

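Endothelial cells had a log2 ratio of the ribosomal protein sum above 0 while 10 other classes lay below it with intervals that exclude 0. These differences were not tested, since each treatment had 1 library. The endothelial ratio exceeded that of fibroblasts by 0.61, of spiny neurons of striatal type by 0.42, of glutamatergic neurons by 0.42, of GABAergic neurons by 0.40 and of astrocytes by 0.35. It exceeded that of border macrophages by 0.23, of mural cells by 0.17, of neuroblasts by 0.11, of oligodendrocytes by 0.089 and of microglia by 0.040. These contrasts depend on how barcodes were pooled. The endothelial sum turned under a stricter filter, after thinning and in 2 of 3 bins by UMI count (-0.046 and -0.034), the microglial sum was above 0 in 3 of 3 bins (0.046, 0.088 and 0.027) and the oligodendrocyte sum in 2 of 3 (0.10 and 0.03).

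Some signal lay outside the genes and barcodes of the comparisons. The pseudogene symbol Rpl10-ps3 had 725 UMIs in the fluconazole library and 527 in the vehicle library over all kept barcodes (log2 ratio 0.44), and Rps18-ps4 had 137 with fluconazole and 103 with vehicle (0.39). Other copies went the other way, with 1585 UMIs with fluconazole and 1878 with vehicle for Rps18-ps6 (-0.27) and 734 with fluconazole and 810 with vehicle for Rpl9-ps6 (-0.16). Reads of such copies may belong to the parent genes. T and NK cells, with 40 barcodes in the fluconazole library and 95 in the vehicle library, were too few to be compared and had ribosomal protein shares of 20.05% with fluconazole and 18.7% with vehicle (log2 ratio 0.099), above all 12 compared classes. B cells had 15.6% in the fluconazole library and 16.1% in the vehicle library on 17 barcodes with fluconazole and 57 with vehicle (log2 ratio -0.045), and ependymal cells 1.98% with fluconazole and 3.69% with vehicle (-0.89) on 6 barcodes with fluconazole and 12 with vehicle. Barcodes of unnamed clusters had 5.37% in the fluconazole library and 7.01% in the vehicle library (-0.38), on 673 barcodes with fluconazole and 694 with vehicle. Barcodes that failed the gene or mitochondrial filter had 5.41% in the fluconazole library and 5.18% in the vehicle library (log2 ratio 0.063).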

How the results depend on the processing

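In glutamatergic neurons the log2 ratio of the ribosomal protein sum, -0.39, kept its direction under the 13 alternatives that gave a value. It was -0.24 with doublets kept, -0.28 after thinning to 1500 UMIs, -0.36 with median-of-ratios scaling and -0.28 as a mean over barcodes. In 3 bins of barcodes by UMI count, added after seeing the data, it was -0.12, -0.25 and -0.57 from the low to the high bin. Free RNA at the median level over marker lists gave no value for the sums of glutamatergic, GABAergic and spiny neurons, astrocytes and oligodendrocyte precursors, and 6 of 12 classes then kept their rank by share, against 8 to 12 under the other alternatives. Sums that turned were endothelial cells under the stricter filter (-0.16) and after thinning (-0.029), neuroblasts under the stricter filter (0.0032) and oligodendrocytes under it (0.35). In these 3 classes and in mural cells the median barcode exceeded the 1% mitochondrial limit of that filter, so most barcodes were left out. In the bins by UMI count the sum also turned in microglia (0.046, 0.088 and 0.027), in the low and middle bins of oligodendrocytes (0.10 and 0.03) and of endothelial cells (-0.046 and -0.034), in the low bin of astrocytes (0.096) and in the middle bin of border macrophages (0.053). The sum of oligodendrocyte precursors, whose interval includes 0, went to 0.16 after clustering without the members and to 0.059 with free RNA at the lowest list. The count of members lower moved under the stricter filter to 54 in endothelial cells, 39 in neuroblasts, 5 of 5 in mural cells, 4 of 8 in oligodendrocytes and 63 in oligodendrocyte precursors. In these precursors it was 59 with doublets kept and 9 after clustering without the members, none of which was a variable gene in the main clustering. In astrocytes it was 1 of 50 with free RNA at the median level. There 72 members had 0 or less left in the vehicle library, so this count gives no direction. Members that turned in glutamatergic neurons were Rps29 after thinning (0.033), as a mean of clusters (0.032), as a mean over barcodes (0.064) and with free RNA at the lowest list (0.24), Rpl31 after thinning (0.15) and with that free RNA (0.067), Rplp2 (0.10) and Rps27l (0.043) with that free RNA. The lowest list was also added after seeing the data. For these changes the cause was not tested. Low counts limit the paralogs and the neurons, where 49.3 ribosomal protein UMIs per glutamatergic barcode with fluconazole and 48.4 with vehicle are spread over 80 members. No paired analysis was possible because each treatment had 1 library and no numbered replicates.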
